A study of Mus musculus with 2 samples.

Results

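The vascular smooth muscle contractile genes described here are Acta2, Tagln, Myh11, Myl9, Mylk, Tpm1, Tpm2, Pln, Cald1 and Crip1. They were taken as a named list of 10 of the 17592 gene columns in a deposited single-cell table, and all 10 were found. The cells came from the microdissected dentate gyrus of C57BL/6 mice, freed with papain and sorted as negative for propidium iodide, a dye that enters dead cells. The old group was 1 library from mice labelled 16 months old, with 1430 cells, and the young group was 1 library from mice labelled 3 months old, with 2463 cells. No genetic change or treatment is given for either, and the number of mice behind a library is not given in the sources used here. Transcript ends were counted in both by unique molecular identifiers (UMIs), with the 3' kit of 10x Genomics. With 1 library an age, no difference has a replicate check and no test was made.

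In vascular smooth muscle, calcium activates the myosin light chain kinase, which phosphorylates the light chains of myosin so that the motor pulls on actin filaments. Tropomyosins and caldesmon lie along those filaments and set the access of myosin, and phospholamban holds back the calcium pump of the sarcoplasmic reticulum. In the brain, a layer of contractile smooth muscle cells wraps arteries and arterioles, whereas pericytes sit along capillaries, and both together are called mural cells.

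The old and the young library held mostly the same brain cells. Of the 2463 young barcodes, 1401 also stood in the old library, and among brain cells 1113 barcodes were shared between 1141 old and 1148 young cells. All 13 young smooth muscle-like cells had the same barcode and class in the old library, as had 66 of the 69 young pericyte-like cells. The results below are therefore of the young table, and the old one is no second sample of these cells. Which age the shared cells came from cannot be told here, so young below names the library and not an age. The old library held 7451506 UMIs (median 3856 a cell) and the young library 16217559 (median 6663). In the young library 1315 cells lay in clusters whose median share of mitochondrial UMIs was under 1%, and these are left out of the brain cells.

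Cell classes were rebuilt with the 10 genes left out of the clustering, and were named from markers that hold none of them. The smooth muscle-like cluster had 13 young cells with a median of 7825 UMIs and passed on all 12 of its markers, and the pericyte-like cluster had 69 young cells with a median of 3129 UMIs and also passed on all 12. The summed smooth muscle markers stood at 65.9 UMIs per 10,000 in smooth muscle-like cells, against 10.8 in pericyte-like cells. The summed pericyte markers stood at 44.0 in smooth muscle-like cells, against 434 in pericyte-like cells. Cnn1, Tesc and Synpo2, a calponin, a calcium-binding protein and a Z-disc protein, had no UMI in pericyte-like cells. Kcnj8 and Abcc9, the channel and the receptor subunit of a pericyte potassium channel, had none in smooth muscle-like cells. Casq2, a calcium-storage protein fixed as a smooth muscle marker, went the other way, with 11 UMIs in smooth muscle-like cells and 112 in pericyte-like cells. In smooth muscle-like cells 7 of 10 endothelial markers were at 0, Cldn5, Pecam1 and Cdh5 among them, and the fibroblast markers Dcn, Lum and Col1a1 were at 0. The summed endothelial list was 4.87 UMIs per 10,000 in smooth muscle-like and 7.55 in pericyte-like cells. Microglial markers summed to 1.88 in smooth muscle-like and 17.2 in pericyte-like cells, where the median cell had 0 and the highest 304. Astrocyte markers summed to 9.07 in smooth muscle-like and 10.2 in pericyte-like cells. The part of these markers in the results was not tested.

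Promoter windows of the members are shown because several of these genes are known targets of serum response factor, which binds the CArG box. RefSeq start-site windows on GRCm38.p6 matched 8 of the 10 members, Tagln and Myh11 being the others. The sequences are the 250 bases before the start, on the gene's own strand, and capitals mark stretches that have at least 9 of the 10 positions of a CArG box, a motif that reads the same on both strands.
Acta2, chr19:34255374-34255623, minus strand: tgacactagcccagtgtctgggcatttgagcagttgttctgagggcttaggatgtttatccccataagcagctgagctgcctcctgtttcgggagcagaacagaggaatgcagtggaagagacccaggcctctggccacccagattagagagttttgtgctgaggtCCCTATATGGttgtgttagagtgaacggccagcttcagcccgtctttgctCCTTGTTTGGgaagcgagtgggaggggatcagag
Myl9, chr2:156775214-156775463, plus strand: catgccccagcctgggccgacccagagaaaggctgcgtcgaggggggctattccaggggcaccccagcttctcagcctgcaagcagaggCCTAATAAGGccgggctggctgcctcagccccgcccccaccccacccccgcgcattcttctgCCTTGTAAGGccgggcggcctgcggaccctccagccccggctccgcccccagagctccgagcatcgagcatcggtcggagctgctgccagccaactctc
Tpm1, chr9:67049214-67049463, minus strand: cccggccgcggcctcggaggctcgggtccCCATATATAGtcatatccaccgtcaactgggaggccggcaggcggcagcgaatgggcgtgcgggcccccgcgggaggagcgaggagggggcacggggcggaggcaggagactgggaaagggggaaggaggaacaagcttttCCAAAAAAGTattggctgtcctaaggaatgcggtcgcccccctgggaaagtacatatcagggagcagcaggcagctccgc
Pln, chr10:53337436-53337685, plus strand: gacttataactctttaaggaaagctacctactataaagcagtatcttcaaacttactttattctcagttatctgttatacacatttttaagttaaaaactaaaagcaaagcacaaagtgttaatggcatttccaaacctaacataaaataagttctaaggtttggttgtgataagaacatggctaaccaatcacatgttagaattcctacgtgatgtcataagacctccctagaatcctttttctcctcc

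Myl9 was the member whose window held a full CArG box, and it held a stretch with 1 position off as well. The Acta2 and Tpm1 windows each held 2 stretches with 1 position off. Crip1 also held 2, and Cald1 held 1 in the first of its 2 windows. The windows of Pln, Tpm2 and Mylk held no such stretch. Among all 32851 windows of that length, 1.47% held a full box and 18.6% held a stretch with at least 9 of 10 positions. A match is a description of letters in this window and not of binding, and no match says nothing about the factor.

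All 10 members were higher in mural than in other brain cells of the young library. Levels below are the UMIs of a gene per 10,000 UMIs of all its class's cells, with exact Poisson 95% intervals for levels and ratios, and a gene was called when its ratio was at least 2-fold. Among 12336 genes with at least 20 UMIs over both groups, 13.4% were called higher in mural cells and 31% lower. Tagln stood at 27.5 in mural cells against 0.0342 in the others, 804-fold (523 to 1306). Acta2 stood at 55.6 against 0.120, or 462-fold (366 to 591), and Pln at 6.71 against 0.0146, or 458-fold (237 to 1016). Myl9 was 451-fold higher (341 to 610). The intervals of Tagln, Acta2, Pln and Myl9 all overlap, and the order of these ratios changes without 1 cell described below. The lowest was that of Tpm1, at 9.36 in mural cells against 0.773 in the others, 12.1-fold (10.4 to 14.04). Cald1 was 47.8-fold (42.1 to 54.4) and Crip1 47.0-fold (42.3 to 52.3) higher in mural cells. Intervals here and below cover counting error only.

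**Figure D1:**
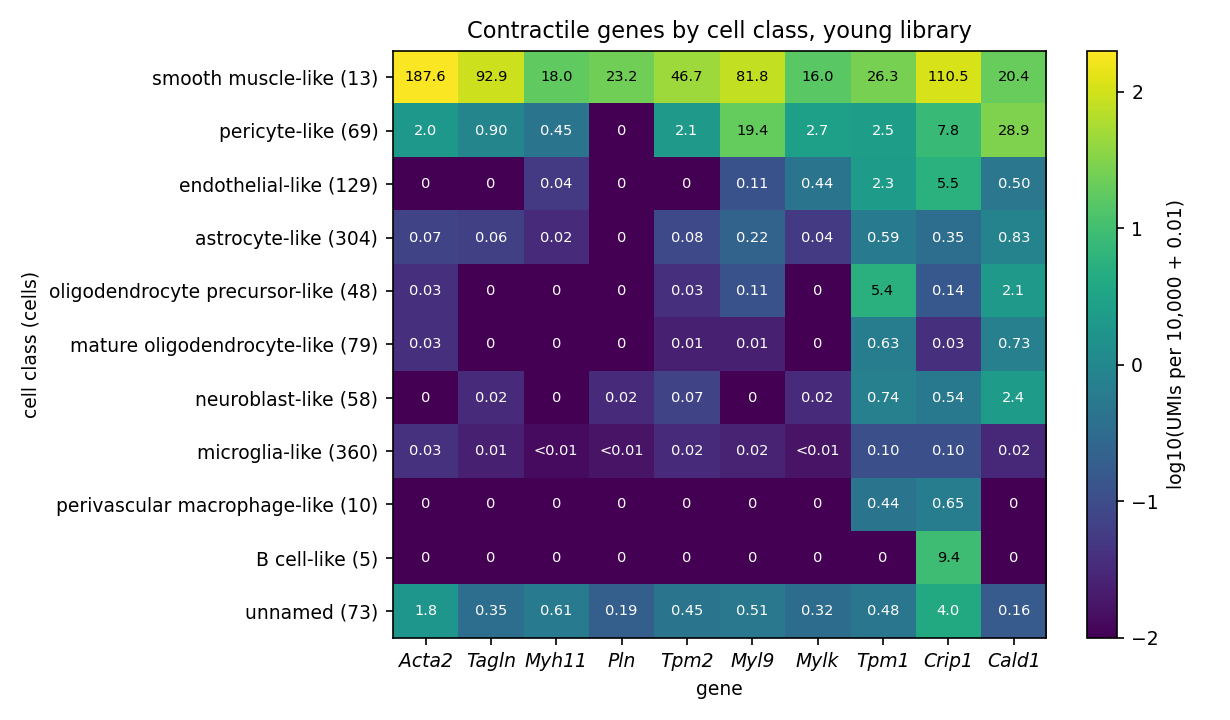
Level of each contractile gene (columns) in each brain cell class of the young library (rows, with the number of cells), as UMIs per 10,000 UMIs of the class, with the colour on a log10 scale and the level printed in each field. Acta2, Tagln, Tpm2 and Pln are at 0 in endothelial-like cells, whereas Tpm1 reaches 5.44 in oligodendrocyte precursor-like cells.

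Outside the mural cells the members went different ways. Acta2, Tagln, Tpm2 and Pln had no UMI in 129 endothelial-like cells, which at 458728 UMIs bounds each below 0.0654 per 10,000 by a floor of 3 UMIs. In 360 microglia-like cells, with a median of 8003.5 UMIs, Acta2 was seen in 2.5% of cells and Tagln in 1.11%. Their levels there were 0.0311 and 0.0138, and whether these UMIs came from free RNA was not tested. Tpm1, a tropomyosin with many splice forms, was well above its own share of 7.22% in microglia-like cells. Its level was 5.44 (4.70 to 6.27) in oligodendrocyte precursor-like cells, where 89.6% of 48 cells (median 7999 UMIs) had a UMI, and there it was above the 2.47 (1.86 to 3.22) of pericyte-like cells. Endothelial-like cells, at 2.31 (1.89 to 2.79), overlapped the pericyte-like interval for Tpm1. Below them came neuroblast-like cells at 0.739, mature oligodendrocyte-like cells at 0.632 and astrocyte-like cells at 0.586, whose intervals overlap, and microglia-like cells at 0.1002. Perivascular macrophage-like cells, with 2 Tpm1 UMIs, and B cell-like cells, with none, were too few to place.

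Cald1 and Crip1 had other orders. Cald1 was highest in pericyte-like cells, at 28.9 (26.7 to 31.3), then 20.4 (17.5 to 23.5) in smooth muscle-like cells. After a gap it stood at 2.38 (1.94 to 2.87) in neuroblast-like and 2.07 (1.62 to 2.60) in oligodendrocyte precursor-like cells, which do not differ beyond counting error. In endothelial-like cells Cald1 was 0.501 and in microglia-like cells 0.0207. Crip1 followed the smooth muscle-like cells with B cell-like cells at 9.39 (5.47 to 15.0; 17 UMIs in 4 of 5 cells), pericyte-like cells at 7.82 (6.70 to 9.07) and endothelial-like cells at 5.47 (4.82 to 6.19). The B cell-like and pericyte-like intervals for Crip1 overlap, and without the pericyte-like cell of the highest member level, described below, the pericyte-like level was 6.95 (5.90 to 8.15), which overlaps the endothelial-like interval. Mylk was 0.436 in endothelial-like cells, with a UMI in 12.4% of them, against 0.556% of microglia-like cells.

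Single cells outside the mural classes carried much of what the other brain cells held. An unnamed cell with 12433 UMIs, called a doublet, had 148 member UMIs, among them 55 of Acta2, 19 of Myh11, 13 of Tpm2 and 6 of Pln. Without it the ratio of mural over other cells was 1794 for Acta2, 1685 for Tagln, 678 for Myh11 (142 with it), 458 for Tpm2 (278 with it) and 1372 for Pln. Another unnamed cell had 103 Crip1 UMIs among 12811 and no other member. The choice to leave out the doublet was made after its values were seen.

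Between smooth muscle-like and pericyte-like cells, 9 of the 10 members were at least 2-fold higher in smooth muscle-like cells, and Cald1 was lower by less than 2-fold. Of 2839 genes with at least 20 UMIs over both classes, 9.33% were called higher and 23.4% lower in smooth muscle-like cells. The median log2 ratio was 4.16 over the members and -0.22 over all genes tested. The class totals behind these values were 90413 UMIs in smooth muscle-like and 222511 UMIs in pericyte-like cells.

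The actin and its partner had the highest ratios of the members seen in both classes. Acta2, the smooth muscle alpha-actin (GRCm38 chr19:34241090-34255590), had a lowest level of 20.5, a median of 184 and a highest of 293 in the 13 smooth muscle-like cells, against 0, 0 and 126 in the 69 pericyte-like cells. All 13 smooth muscle-like cells had Acta2 UMIs, and 4 pericyte-like cells did (5.80%, exact 95% interval 1.60 to 14.2, beside the 2.5% of microglia-like cells). The class levels of Acta2 were 188 (179 to 197) in smooth muscle-like and 1.98 (1.44 to 2.65) in pericyte-like cells, 94.9-fold apart (70.4 to 131). Tagln, transgelin, an actin-binding protein of the calponin family (chr9:45929619-45936058), had 4.11, 91.5 and 134 in smooth muscle-like cells, against 0, 0 and 60.9 in pericyte-like cells. Its class levels were 92.9 and 0.899, 103-fold apart (66.5 to 170), and it was seen in 6 pericyte-like cells (8.70%).

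A single pericyte-like cell held 70.5% of that class's Acta2 UMIs and 75% of its Tagln UMIs. It had 95 member UMIs among 2465, with 31 of Acta2, 15 of Tagln, 21 of Crip1 and none of Pln. On the axis of naming markers described below it lay at -1.17, inside the range of smooth muscle-like cells, which began at -2.79. It joined them when the members were allowed into the clustering, and also at Leiden resolution 2 with the members left out. Without it the ratio of smooth muscle-like over pericyte-like cells was 318 (185 to 598) for Acta2 and 409 (175 to 1263) for Tagln. Acta2 was then left in 3 of 68 pericyte-like cells, 1 of them with 11 UMIs, and the ratios of the other members moved by less than 1.5 times. The choice to leave out this cell was made after its values were seen.

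The myosin motor and the kinase split in how far pericyte-like cells shared them. Myh11, the smooth muscle myosin heavy chain (chr16:14194535-14291372), ranged from 2.05 over a median of 16.7 to 52.3 in smooth muscle-like cells, against 0, 0 and 8.11 in pericyte-like cells. Class levels were 18.0 and 0.449, 40.1-fold apart (21.3 to 85.2), and the ratio of Myh11 was 15.4 with the members allowed into the clustering. Myl9, a regulatory light chain of that myosin (chr2:156775420-156781658), had 16.4, 76.2 and 136 in smooth muscle-like cells, against 0, 16.8 and 68.97 in pericyte-like cells, so that the ranges overlap. Of pericyte-like cells, 94.2% had a Myl9 UMI, against 1.39% of microglia-like cells. The class levels of Myl9 were 81.8 and 19.4, a ratio of 4.22 (3.74 to 4.76). Mylk, the myosin light chain kinase (chr16:34745210-35002420), had 0, 17.6 and 34.8 in smooth muscle-like cells, against 0, 2.13 and 11.4 in pericyte-like cells. Its ratio was 5.95 (4.37 to 8.18), with a UMI in 92.3% of smooth muscle-like and 55.1% of pericyte-like cells.

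Of the thin-filament genes, the tropomyosins were higher in smooth muscle-like cells and caldesmon was not. Tpm2, beta-tropomyosin (chr4:43514711-43523765), had 4.10, 39.9 and 108 in smooth muscle-like cells, against 0, 0 and 24.3 in pericyte-like cells, and class levels of 46.7 and 2.07 (22.6-fold, 16.6 to 31.3). Tpm1 (chr9:67022590-67049406) had 12.6, 24.8 and 41.5 in smooth muscle-like cells, against 0, 2.07 and 22.9 in pericyte-like cells, and class levels of 26.3 and 2.47 (10.6-fold, 7.91 to 14.6). The ranges of both tropomyosins overlap between the classes, below the smooth muscle-like median. Cald1, caldesmon (chr6:34598500-34775473), had 7.88, 21.0 and 32.9 in smooth muscle-like cells, against 0, 26.6 and 75.5 in pericyte-like cells. Its class levels were 20.4 and 28.9, a ratio of 0.703 (0.594 to 0.830), and all 13 smooth muscle-like and 67 of 69 pericyte-like cells had a UMI. Splice forms of Tpm1, Tpm2 and Cald1 are not told apart by these counts.

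Pln was the one member with no UMI in any pericyte-like cell. Pln, phospholamban (chr10:53337667-53345987), had 0, 20.1 and 38.3 in smooth muscle-like cells, with 210 UMIs in 10 of 13 cells. Its class level was 23.2 (20.2 to 26.6) in smooth muscle-like cells, 172 times a floor of 3 UMIs over the pericyte-like class. The exact lower limit of its ratio was 139. When the members were allowed into the clustering, the unnamed doublet with 6 Pln UMIs joined the pericyte-like cells and the ratio was 88.0. With cells thinned to 2000 UMIs the value over such a floor was 82.4. Crip1, a small LIM-domain protein (chr12:113146316-113153879), had 46.5, 94.6 and 191 in smooth muscle-like cells, against 0, 3.46 and 85.2 in pericyte-like cells. The class levels of Crip1 were 110 and 7.82, a ratio of 14.1 (12.02 to 16.7), with a UMI in 62.3% of pericyte-like and 7.78% of microglia-like cells. Pln overlaps Cep85l on the opposite strand, Mylk overlaps Gm21691 and the end of Tagln overlaps Pcsk7 and Gm48529, and whether strand was used in the counting is not given in the sources used here.

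**Figure D2:**
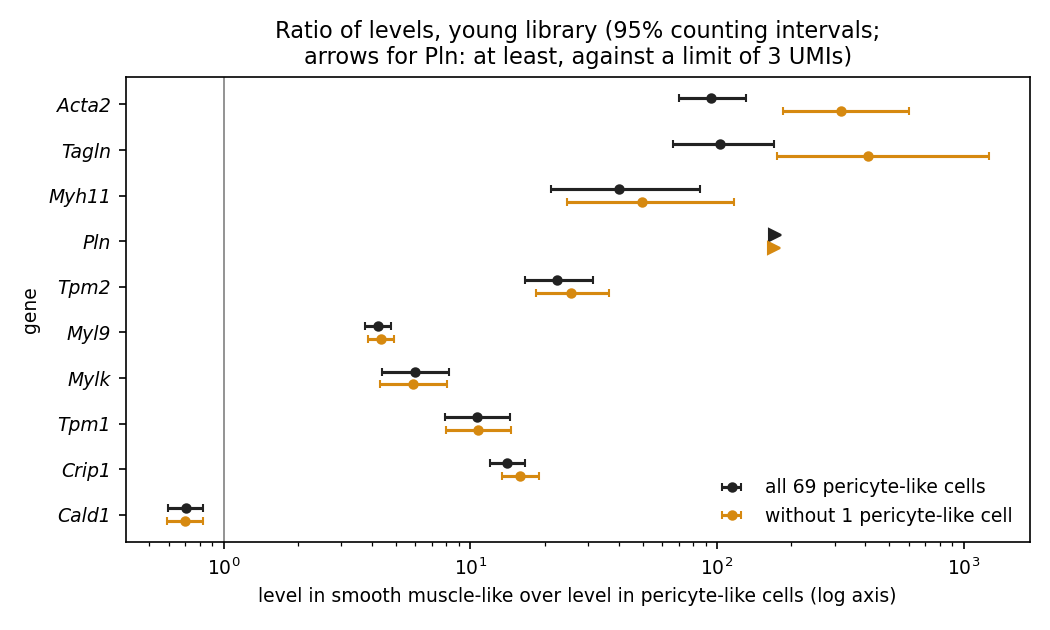
Ratio of smooth muscle-like over pericyte-like cells for each contractile gene on a log axis, with exact 95% counting intervals, for all 69 pericyte-like cells and without the 1 cell of the highest member level. The arrow for Pln, with no pericyte-like UMI, stands at 172, its level over a floor of 3 UMIs and not an interval bound, and only Cald1 lies left of 1, at 0.703.

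Shares of cells were also compared at equal depth. When each cell was thinned to 2000 UMIs, 12 smooth muscle-like, 56 pericyte-like and 344 microglia-like cells remained. Every one of the 12 smooth muscle-like cells then had a UMI of Acta2, Tagln, Myl9, Tpm1, Tpm2 and Crip1, 91.7% had one of Myh11, Mylk and Cald1, and 75% had one of Pln. In the thinned pericyte-like cells the share was 92.9% for Myl9 and 96.4% for Cald1, but 3.57% for Acta2, 7.14% for Tagln and 10.7% for Myh11. Between these lay Tpm2 at 25%, Tpm1 at 35.7%, Mylk at 44.6% and Crip1 at 67.9%. In thinned microglia-like cells no member exceeded 3.49%.

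**Figure D3:**
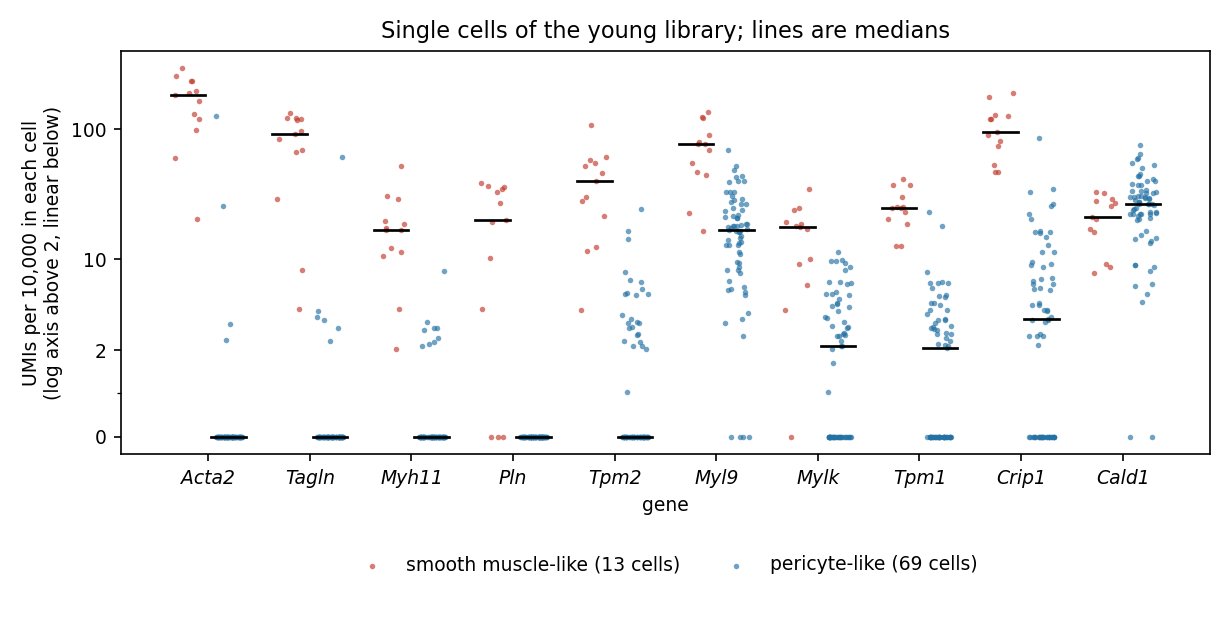
Level of each contractile gene in every mural cell of the young library, as UMIs per 10,000 UMIs of the cell, with 13 smooth muscle-like and 69 pericyte-like cells (lines are medians, the axis is logarithmic above 2 and linear below). For Acta2 the smooth muscle-like cells lie between 20.5 and 293 and all but 4 pericyte-like cells lie at 0, whereas for Cald1 the pericyte-like cells reach 75.5, beyond the 32.9 of the smooth muscle-like cells.

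The 13 smooth muscle-like cells were not alike. An axis was made for each mural cell from the naming markers alone, as the log2 of the summed smooth muscle markers plus 1 over the summed pericyte markers plus 1. Above 0 lay 9 smooth muscle-like cells (0.32 to 4.25), and below it lay 4 (-2.79 to -1.49). The 10 members summed to between 478 and 850 UMIs per 10,000 in each of those 9 cells, and to between 147 and 429 in the 4, so that the ranges do not overlap. This split was chosen after the values were seen and rests on 74180 UMIs in the 9 cells and 16233 UMIs in the 4.

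Of the 10 members Pln had the largest ratio between those cells. Its level was 10.3 to 38.3 in each of the 9 cells, and in the 4 it was seen in 1 cell, with 2 UMIs in all, 28.0 (24.4 to 32.1) against 1.23 (0.149 to 4.45) per 10,000. Acta2 was 213 (203 to 224) in the 9 cells and 69.6 (57.4 to 83.7) in the 4, and Tagln was 107 (100 to 115) and 27.1 (19.7 to 36.4). Tpm2 was 53.0 (47.9 to 58.5) in the 9 cells and 17.9 (11.96 to 25.7) in the 4. Tpm1, at 27.9 (24.2 to 32.0) and 19.1 (12.98 to 27.1), and Cald1, at 19.3 (16.2 to 22.7) and 25.3 (18.1 to 34.3), had intervals that overlap, as had Myh11, at 19.7 (16.6 to 23.1) and 10.5 (6.10 to 16.8). Mylk was 18.1 (15.1 to 21.4) in the 9 cells and 6.78 (3.38 to 12.1) in the 4. Myl9 was 92.6 (85.8 to 99.8) and 32.6 (24.5 to 42.7), and Crip1 was 121 (113 to 129) and 62.8 (51.2 to 76.3). The highest Myh11 (52.3) and Mylk (34.8) levels of all 13 cells were in 1 of the 4, a cell of 1722 UMIs with 9 of Myh11 and 6 of Mylk. The 4 cells were shallower, at 1722 to 4884 UMIs, against 4963 to 9651 in the 9 cells, and the part of depth was not tested.

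Along the axis from pericyte-like to smooth muscle-like cells most of the difference lay at the last step, which is a class and not a range of the axis. The pericyte-like cells were cut into a lower, a middle and an upper band of 23 cells each, and these are ranges of a score with 19 cells within 0.25 of a cut. In pericyte-like cells Casq2 gave 112 of the 240 smooth muscle marker UMIs behind the score, and Vtn 5676 of the 9653 pericyte marker UMIs. The order of the bands thus leans on Casq2 and Vtn, and their part in it was not tested. Called doublets stayed in, with 3120, 1014 and 5269 UMIs in the upper band and 9676 UMIs in the lower. Median depth was 2920 UMIs in the upper and 2930 in the lower band. Some cells were much shallower, such as those of 875 and 895 UMIs in the upper band and 1387 in the lower. The score of such a cell rests on few marker UMIs. The 10 members summed to 57.9 (52.7 to 63.6) in the lower band, 63.7 (58.3 to 69.5) in the middle, 80.6 (73.9 to 87.7) in the upper band and 623 (607 to 640) in smooth muscle-like cells. On the axis smooth muscle-like cells began at -2.79 and pericyte-like cells reached -1.17. The 4 smooth muscle-like cells below 0 stood at 273 (248 to 300), between the upper band and the 9 above 0, at 700 (681 to 719). The upper band was 1.39 times the lower one (1.22 to 1.58), and 1.19 times without the 1 cell named above. Without that cell the upper band stood at 68.8 (62.5 to 75.5), and its interval overlaps those of the lower and the middle band.

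The step within pericyte-like cells was carried by few members. Crip1 was 4.82 (3.39 to 6.64) in the lower band, 6.52 (4.87 to 8.56) in the middle and 12.9 (10.3 to 15.9) in the upper band, or 10.1 (7.76 to 12.9) without that cell, and 110 in smooth muscle-like cells. Tpm2 stood at 0.912, 1.63, 3.94 and 46.7 over the same 4 steps, with 3.15 in the upper band without that cell. Acta2 stood at 0.130, 0.125, 6.36 and 188, and its upper band stood at 1.73, from 11 UMIs of a single cell, without that cell. Tagln stood at 0, 0.125, 2.88 and 92.9, with 0.629 in the upper band without it. Myl9, at 17.7, 20.7, 19.8 and 81.8, and Mylk, at 2.34, 3.01, 2.73 and 16.0, had no such order within the pericyte-like cells. Cald1 stood at 29.95, 28.9, 27.9 and 20.4, with overlapping intervals over the 3 bands and 28.6 in the upper band without that cell, and Pln was at 0 in all 3 bands.

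**Figure D4:**
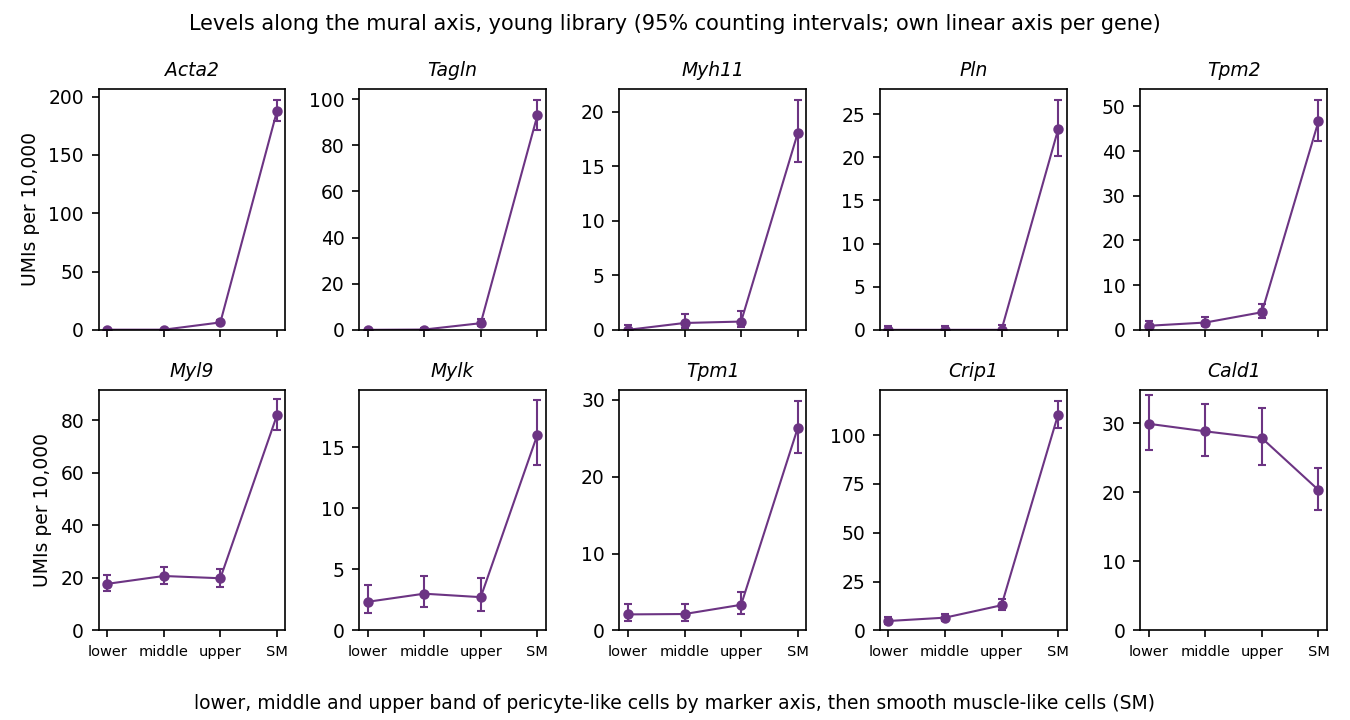
Level of each contractile gene over 4 steps, the lower, middle and upper band of pericyte-like cells by the marker axis (23 cells each) and the 13 smooth muscle-like cells, as UMIs per 10,000 on a linear axis for each gene, with exact 95% intervals. Crip1 goes over 4.82, 6.52 and 12.9 to 110, while Myl9 stays between 17.7 and 20.7 before reaching 81.8.

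As a description over single cells, which share 1 library and differ in depth, Spearman's rho of a member's level with the axis was 0.68 for Tagln, 0.63 for Acta2, 0.62 for Myh11 and Crip1, 0.35 for Myl9 and -0.27 for Cald1 over the 82 mural cells. Within the 69 pericyte-like cells it was 0.35 for Crip1, 0.34 for Tagln and 0.18 for Acta2, and it was -0.01 for Myl9. Acta2, Tagln, Myh11 and Tpm2 had no UMI in most pericyte-like cells, and the weak values there are no finding.

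Other genes of the contractile apparatus were more often called higher than lower in smooth muscle-like cells. Of 26 listed genes 23 passed the minimum, of which 12 were at least 2-fold higher and 3 at least 2-fold lower in smooth muscle-like cells. Over all genes tested 9.33% were called higher and 23.4% lower. The median log2 ratio was 1.299 over the list against -0.22 over all genes tested. Csrp1, a LIM-domain protein of smooth muscle, had 155 UMIs in smooth muscle-like and 3 in pericyte-like cells, 127-fold (42.7 to 623). Pdlim3, an actinin-binding PDZ and LIM protein, was 51.7-fold higher (42 against 2 UMIs, 13.4 to 441), and Actn1, an actinin that crosslinks actin, was 20.9-fold higher (8.98 to 59.7). Dstn, an actin-severing protein, stood at 29.0 in smooth muscle-like and 2.83 in pericyte-like cells, 10.2-fold higher (7.75 to 13.7), and Csrp2, a relative of Csrp1, was 8.05-fold higher (4.01 to 17.5). Myl6, the essential light chain that pairs with Myl9, stood at 88.5 and 12.1 (7.29-fold, 6.34 to 8.40). Non-muscle myosin Myh9 was lower, at 0.664 and 2.97 (ratio 0.224, 0.0793 to 0.513), and so was Ppp1r14a, the inhibitor of myosin phosphatase, at 4.09 and 8.63 (ratio 0.474, 0.324 to 0.677). Tpm4 was called lower on 5 against 26 UMIs, with an interval that spans 1 (0.142 to 1.25).

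Genes of calcium handling, signalling and regulation had median log2 ratios of 0.47 for the calcium list, 0.25 for the receptor and cyclic GMP list and -0.49 for the transcription factor and Notch list, against -0.22 over all genes tested. Their counts stand beside the 9.33% of all genes called higher and the 23.4% called lower. Of 17 calcium and membrane genes 16 were in the table and 8 passed the minimum, of which 3 were at least 2-fold higher in smooth muscle-like cells and none lower. These were Atp2b4, a plasma membrane calcium pump (6.68-fold, 2.69 to 18.8), Atp2a2, the pump that phospholamban holds back (5.86 and 1.98, 2.96-fold, 1.95 to 4.53), and Mrvi1, a substrate of cyclic GMP kinase (2.65-fold, 1.16 to 6.12). Of 16 genes of vasoactive receptors and cyclic GMP, 14 were in the table and 6 passed, with 2 higher and 2 lower. The phosphodiesterases Pde3a (6.08-fold, 3.39 to 11.4) and Pde5a (2.99-fold, 1.89 to 4.76) were higher in smooth muscle-like cells. Gucy1b1, a subunit of the nitric oxide receptor (ratio 0.438, 0.291 to 0.640), and Ednra, an endothelin receptor (ratio 0.391, 0.179 to 0.767), were lower. Of 15 transcription factors and Notch genes 11 passed, with 1 higher, the Notch ligand Jag1 (2.91-fold, 1.58 to 5.38), and 1 lower, the Notch target Hes1 (ratio 0.185, 0.0824 to 0.362), a share of higher genes near that of all genes. Of 12 other genes of actins, myosins and troponins only Actb and Actg1 passed, at 1.66-fold (1.52 to 1.82) and 1.53-fold (1.20 to 1.94), under the 2-fold call.

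The genes whose pattern over 10 brain classes was most like the mean of the members were Mustn1, Lmod1, Ntn4, Pde3a, Marveld1, Des, Pde5a, Hspb2, Sncg and Snhg18, out of 996 genes compared. Pearson's r of their log2 levels with the members' mean lay between 0.94 and 0.99. The members' own values lay between 0.79, for Tpm1, Cald1 and Crip1, and 0.99. These are raised because the mean holds the member itself, so they are no like measure for the other genes. Mustn1, Lmod1, Des and Sncg are among the markers that named the smooth muscle-like class. Ntn4, which is not, had 6.53 UMIs per 10,000 in smooth muscle-like, 0.270 in pericyte-like and 0.0212 in other brain cells. With ranks in place of log2 levels 0 of these 10 genes were among the leading 10.

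The old table gave nearly the same values, as its mural cells are nearly the same barcodes. In smooth muscle-like cells the 10 members summed to 618 in 15 old and 623 in 13 young cells, a ratio of 0.992 (0.956 to 1.03), and single members had ratios between 0.941 for Pln and 1.06 for Crip1. In pericyte-like cells Acta2 had 16 UMIs in the old and 44 in the young table, and Tagln 6 and 20. Over the 66 barcodes that were pericyte-like in both, Acta2 had 16 old and 13 young UMIs (ratio 1.11, 0.501 to 2.51) and Tagln 6 and 5. With shared cells, these values say nothing on what age does.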

How the data were processed

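Both libraries stood in 1 deposited table with cells in rows. The labels name no unit. The authors' values were read as a natural log (of UMIs scaled to 10,000 a cell, plus 1), because each cell's unlogged values add up to 10000. Recovered as UMIs, 100% of values were whole within 0.01, and those UMIs were summed here. Cell Ranger 5.0.0 and mm10 are named per the submitters' processing notes. No per-sample column was left unused.

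All 3893 cells were clustered together, without integration, with Scanpy 1.11.5 in Python 3.11.15 (2000 variable genes without the members, 30 components, 15 neighbours, Leiden resolution 1, igraph 0.11.9). Pandas 2.3.3, numpy 2.4.6, matplotlib 3.10.9 and scipy 1.17.1 were also used. A class name needed 3 markers, each with a UMI in 25% of the cluster's cells and 4-fold over the other cells. A difference from other work may come from these rebuilt names. Doublets called by Scrublet (1.61% of old and 1.50% of young cells) stayed in, and one alternative left them out. Papain and the sort can set the shares of classes, which are not compared.

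Classes were compared by summed UMIs over genes with at least 20 UMIs in both classes together. All 10 members were named, with up to 6 genes of each pathway list that were at least 2-fold apart, and the 10 genes of most like pattern by Pearson correlation of log2(level + 0.1) among genes with at least 50 mural UMIs. Where a count was 5 or fewer, its genes are named too, Myh9, Ppp1r14a, Tpm4, Actb and Actg1 among them, chosen after their values were seen. The members and lists were chosen with earlier results of these data known. Gene positions are from GENCODE on GRCm38 and promoter windows from RefSeq. The script for ratios was tested on simulated data. Alternatives were other clusterings, doublets removed, the mean of cells' levels, thinning to 2000 UMIs, the old rows, shared barcodes, no minimum, a pseudocount of 0.1, single cells left out and Spearman's correlation.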

Additional observations from a re-analysis of the deposited data

Results flagged for a closer look

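The 1315 low-mitochondrial cells of the young library stand outside the brain classes compared above, and 8 of the 10 contractile genes had more than 3 UMIs there, a floor for counting and not a background level. Acta2 was at 2.48 UMIs per 10,000, with 2421 UMIs in 73.4% of cells, and Tpm1 was at 4.24. Tpm2 was at 0.995 and Cald1 at 0.872. In microglia-like cells these stood at 0.0311 for Acta2, 0.1002 for Tpm1, 0.0242 for Tpm2 and 0.0207 for Cald1. Mylk was at 0.0676, against 0.00691 in microglia-like cells. Tagln at 0.0143, Myl9 at 0.0205 and Crip1 at 0.0563 were close to or below the 0.0138, 0.0173 and 0.104 of microglia-like cells, and the source of these UMIs was not tested. For comparison, smooth muscle-like cells stood at 188 for Acta2 and 92.9 for Tagln. Between the low-mitochondrial clusters Acta2 ranged between 1.06 and 3.79, and Tpm2 between 0.301 and 4.74. Myh11 had 2 UMIs and Pln 1.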

How the results depend on the processing

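The counts of members called, 9 of 10 over pericyte-like and 10 of 10 over other brain cells, were the same under every alternative run. The count of all genes called higher in smooth muscle-like cells was 265 as reported, 126 with cells thinned to 2000 UMIs and 1591 with no minimum of UMIs. For mural over other brain cells it was 1653, and 1046 with a pseudocount of 0.1. The ratio of the upper over the lower band was 1.39, and 1.19 at Leiden resolution 2 or without the pericyte-like cell of the highest member level, and 1.18 over barcodes of the same class in both tables. Of the 10 genes of most like pattern, 0 remained with Spearman's correlation. The ratio of Acta2 in smooth muscle-like over pericyte-like cells ran between 58.9 (thinned) and 318 (without that cell). It was 62.9 with the members allowed in the clustering, 276 in the old rows and 315 at Leiden resolution 2. The cause was not tested, beyond the single cells named. With members allowed in the clustering Myh11 was 15.4 and Pln 88.0. Each member's ratio was looked at under each alternative setting. Over both comparisons, 197 of these pairs of gene and setting stayed within the gene's counting interval and 63 moved, with none reversed. Some of the settings could not move some of the ratios. The limit here is 13 cells in 1 library, and counts under 20 UMIs carry wide intervals. No paired analysis was possible because each age has 1 library and no test was made.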
